A study of Rattus norvegicus with 8 samples.

Results

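Heat shock proteins and chaperones were represented by 5 of the 32883 Ensembl genes in the deposited table of spinal cord transcripts. They were chosen by identifier: the small heat shock proteins Hspb1 (ENSRNOG00000023546) and Cryab (ENSRNOG00000010524), the cytosolic chaperones Hspa8 (ENSRNOG00000034066) and Hsp90ab1 (ENSRNOG00000019834), and the chaperone of the endoplasmic reticulum, Hspa5 (ENSRNOG00000018294). The table gives identifiers only, and the symbols are those that came with the choice of the genes. Of the 5 members, 4 passed the filter on low counts that 4086 genes of the table passed, and Hspa8 did not.

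The cords came from Sprague Dawley rats 23 days after a spinal hemisection at T9, the ninth thoracic level, and only the cord below the injury, described as intact, was taken. Both groups carried the injury: 4 libraries came from rats with training and 4 from rats without it, called trained and untrained here. The sources used here do not state the form of training, the age of the animals or how many animals stand behind a library, so p-values measure the spread between libraries, which may be technical. RNA was counted by CEL-Seq2, a 3′-end method in which every captured transcript receives a random barcode, the unique molecular identifier (UMI), and libraries held 192472 to 453390 UMIs. Trained replicates 2, 3 and 4 held 216786, 192472 and 212328 UMIs, fewer than any untrained library (240895 to 453390). Trained replicate 1 held 400934. Depth thus differed between the groups, and its part in the comparison of training was not tested.

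Chaperones bind unfolded or partly folded proteins and keep them from aggregating. Small heat shock proteins such as Hspb1 and Cryab hold unfolding clients without using ATP, whereas the Hsp70 and Hsp90 families, to which Hspa8, Hspa5 and Hsp90ab1 belong, use ATP to fold and release them. In the nervous system Hspb1 is known from motor and sensory neurons and reactive astrocytes and Cryab from oligodendrocytes and astrocytes. Heat shock factor 1 raises many cytosolic chaperones through heat shock elements in their promoters, and unfolded protein in the reticulum raises Hspa5 through the endoplasmic reticulum stress element.

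These control sequences differ between the members and are shown because they define the 2 branches of the response that the panel samples. Promoters of 4 of the 5 members were at hand from RefSeq (build GRCr8): those of Hspb1, Hspa8, Hsp90ab1 and Hspa5. The 250 bases before each start were searched on both strands for the paired heat shock unit, GAANNTTC or TTCNNGAA, for the triple unit GAANNTTCNNGAA, in which both pairs overlap, and for the reticulum stress element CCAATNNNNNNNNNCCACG. Hspb1 held the paired unit at 2 places and the triple unit at none. Hspa8 held the triple unit at 2 places. Hspa5 held 1 reticulum stress element and no heat shock unit, and Hsp90ab1 held none of the 3 patterns in this window. Of 33469 RefSeq promoters of this length, 13.5% held a paired unit, 0.663% a triple unit and 0.0657% the reticulum stress element. A match is a description of letters, and binding was not measured. The stretches below are written 5′ to 3′ along the gene, and capitals mark the matches.
Hspb1, chr12:26432383-26432450, minus strand: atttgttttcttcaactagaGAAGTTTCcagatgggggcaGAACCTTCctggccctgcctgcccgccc
Hspa8, chr8:50080281-50080333, plus strand: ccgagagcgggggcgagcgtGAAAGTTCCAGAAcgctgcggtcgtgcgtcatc
Hspa8, chr8:50080439-50080491, plus strand: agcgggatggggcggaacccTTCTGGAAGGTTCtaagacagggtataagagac
Hspa5, chr3:38452953-38453011, plus strand: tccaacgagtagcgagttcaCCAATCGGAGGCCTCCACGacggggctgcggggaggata

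Training was compared first, since the study asked how training changes the transcriptome of the cord below the injury. No difference between trained and untrained cords was detected for any of the 4 members tested. Their log2 fold changes lay between -0.23 and 0.09, and none of their 95% intervals reached a 2-fold difference. With edgeR's quasi-likelihood test, 0 of the 4 members and 0% of the 4086 genes tested passed an adjusted p of 0.05 (1.27% at an unadjusted p under 0.05). With same-numbered libraries taken as pairs, 0 of the 4 members passed, against 0.0489% of all genes (edgeR with a block for the replicate number). All 4 trained libraries lay above or below all 4 untrained ones for 0 of the 4 members, against 1.10% of all genes. At an unadjusted p under 0.05, the paired fit gave 4.19% of all genes and again 0 of the 4 members. The members' median log2 fold change was -0.10 without the block and -0.11 with it, and that of all genes tested was 0.01 in both fits. In whole tissue, fewer cells of a type and less RNA per cell cannot be told apart.

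**Figure D1:**
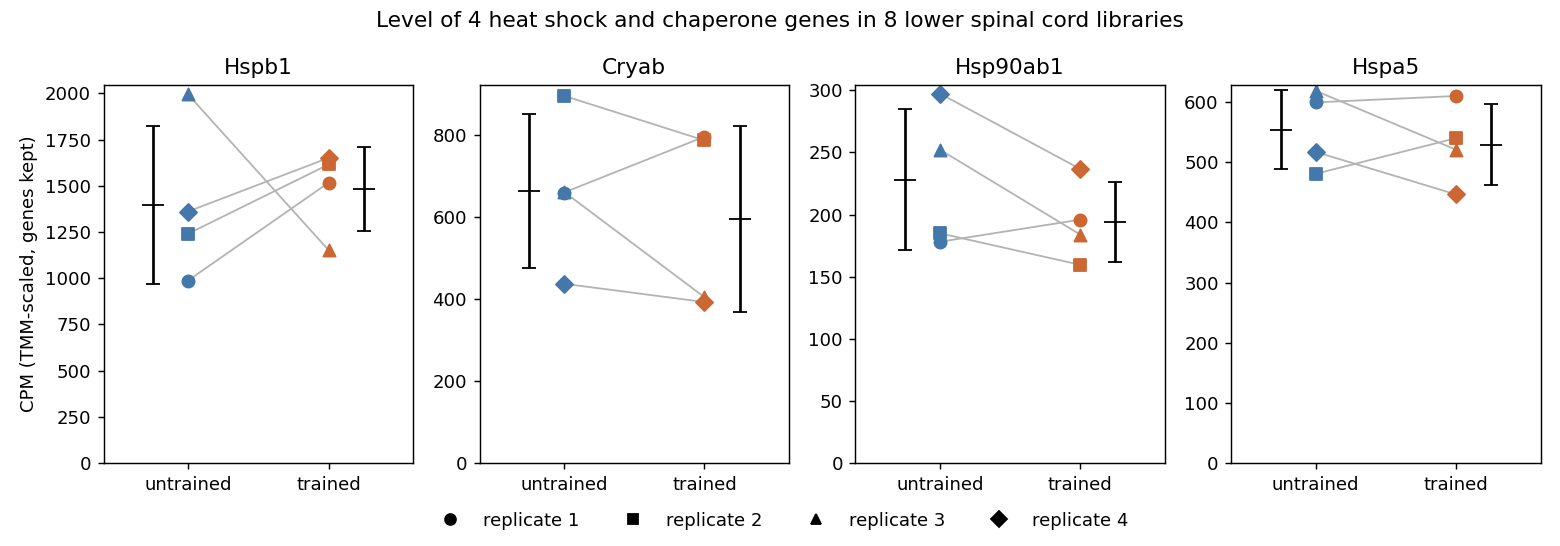
Level of Hspb1, Cryab, Hsp90ab1 and Hspa5 in CPM (TMM-scaled, vertical axis from 0) in 4 untrained (blue) and 4 trained (orange) libraries. Symbols give the replicate number, grey lines join equal numbers, and black bars are the mean ± SD of each group; the groups overlap for all 4 genes, and the line of Hspb1 replicate 3 runs down from 1995 to 1152 CPM while the other 3 run up.

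Hspb1, the small heat shock protein also called Hsp25 or Hsp27, gave 188 to 613 UMIs per library. Its level, as UMIs scaled to a common library total with TMM factors (CPM), was 987, 1240.4, 1995 and 1361 CPM in untrained replicates 1 to 4. In trained replicates 1 to 4 it was 1517, 1616, 1152 and 1651 CPM. The trained values lay inside the range of the untrained ones, whose highest library was replicate 3. Mean levels were 1396 ± 429 CPM in untrained and 1484 ± 229 CPM in trained cords (SD, n = 4 each). Trained minus untrained, the log2 fold change came to 0.09 ± 0.23 (SE, edgeR adjusted p = 0.99998), with a 95% interval of -0.39 to 0.57. Trained cords were higher in 3 of 4 pairs, by 0.62, 0.38 and 0.28 on the log2 CPM scale for replicates 1, 2 and 4. Replicate 3 went the other way, with a difference of -0.79. The blocked estimate was 0.14 ± 0.17 (SE, edgeR adjusted p = 0.994) with all pairs and 0.42 without replicate 3 (adjusted p = 0.669). Since replicate 3 was the only pair lower in trained cords, leaving it out could only raise the estimate. Without replicate 1, 2 or 4 instead, the blocked estimate was -0.02, 0.05 and 0.09. Within replicates 1 and 2 alone the difference was 0.49, and within replicates 3 and 4 alone it was -0.26; neither passed the test.

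Cryab, or alpha B-crystallin, is a small heat shock protein that can form mixed oligomers with Hspb1. It gave 66 to 317 UMIs per library. Its level was 660 CPM in untrained replicate 1, 896 in replicate 2, 662 in replicate 3 and 437 in replicate 4. The trained libraries held 796, 787, 404 and 393 CPM in the same order. Trained replicates 3 and 4 lay below every untrained library, while the other trained libraries lay within the untrained range. The group means were 664 ± 187 CPM untrained and 595 ± 227 CPM trained (SD, n = 4 each). On the log2 scale trained differed from untrained cords by -0.14 ± 0.27 (SE, edgeR adjusted p = 0.99998), with an interval of -0.71 to 0.43. In pairs it was lower in trained cords in 3 of 4, with differences of 0.27, -0.19, -0.70 and -0.15. With the block the estimate was -0.15 ± 0.14 (SE, edgeR adjusted p = 0.994). Leaving out trained replicate 4 or untrained replicate 2 brought the unblocked estimate of Cryab to 0.00 and 0.04. It became -0.30 without untrained replicate 4, -0.32 without trained replicate 1, -0.30 without trained replicate 2 and -0.01 without trained replicate 3. The blocked estimate was -0.33 without replicate 1 (edgeR adjusted p = 0.952) and -0.01 without replicate 3 (adjusted p = 0.993). Within replicates 1 and 2 alone the difference was 0.02, and within replicates 3 and 4 alone it was -0.46; neither passed.

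Hspa8, the constitutive Hsc70 that folds new proteins and uncoats clathrin vesicles, had almost no counts. The row of its identifier held 1 UMI, in trained replicate 1, and 0 in each of the other 7 libraries. A count of 0 allows a level of up to 6.62 CPM of the whole library in the deepest library and 15.6 CPM in the shallowest, counting error only. No fold change is given, since both groups lie at or under that limit of 3 UMIs. Rows with no UMI in any library made up 60.3% of the table. Whether reads of this gene were assigned to another row, or were left out where they matched several places, was not tested. The sources used here do not say how such reads were handled. The row is therefore not read as the level of Hsc70 in the cord.

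Hsp90ab1, the constitutive cytosolic Hsp90 that matures kinases and steroid receptors, had the fewest UMIs of the members tested, 30 to 134 per library. Untrained replicates 1 to 4 held 178, 185, 252 and 297 CPM. Trained replicates 1 to 4 held 196, 159.5, 184 and 237 CPM. The groups overlapped, with 1 trained library, replicate 2, below every untrained one. The means were 228 ± 57.1 CPM untrained and 194 ± 32.2 CPM trained (SD, n = 4 each). Its log2 fold change of -0.23 ± 0.23 (SE, edgeR adjusted p = 0.99998; interval -0.72 to 0.25) was the farthest from 0 of the 4 members tested. The pairs differed by 0.13, -0.21, -0.44 and -0.32, lower in trained cords in 3 of 4, and the blocked estimate was -0.19 ± 0.16 (SE, edgeR adjusted p = 0.994). Without untrained replicate 4, its highest library, the unblocked estimate was -0.06. Leaving out the highest untrained library could only raise the estimate. With any other single library left out, the unblocked estimate lay between -0.35 and -0.16.

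Hspa5, also called BiP or GRP78, is the Hsp70 of the endoplasmic reticulum and the usual marker of reticulum stress. It was the steadiest member, with an SD of 0.17 in log2 CPM over the 8 libraries, against a median of 0.28 over the 288 genes within 0.5 of its mean log2 level. Untrained replicates 1 to 4 held 599.6, 481, 619 and 517 CPM, and trained replicates 1 to 4 held 610.3, 540.3, 521 and 446 CPM. The means were 554 ± 65.8 CPM and 529 ± 67.4 CPM (SD, n = 4 each). The difference on the log2 scale was -0.06 ± 0.19 (SE, edgeR adjusted p = 0.99998), and the interval, -0.46 to 0.34, corresponds to 0.73-fold to 1.27-fold. With pairs as a block it was -0.06 ± 0.13 (SE, edgeR adjusted p = 0.994; 0.80-fold to 1.15-fold). The 4 pairs were split, with 2 higher and 2 lower in trained cords (0.03, 0.17, -0.25 and -0.21). Side by side, replicate 3 held the most negative pair difference of each of the 4 members tested. Replicate 1 held a difference above 0 for all 4. The members share the same libraries and scaling factors, and the share of all genes with these patterns was not worked out. The patterns are therefore not read as a trait of the members. Trained replicate 3 was also the shallowest library, with 192472 UMIs, and trained replicate 1 the deepest trained one, with 400934. Trained replicates 2 and 4 were nearly as shallow as replicate 3, with 216786 and 212328 UMIs. Their pair differences went both ways: 0.38 and 0.28 for Hspb1, -0.19 and -0.15 for Cryab, -0.21 and -0.32 for Hsp90ab1, and 0.17 and -0.21 for Hspa5. The part of depth in the pair differences was not tested.

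**Figure D2:**
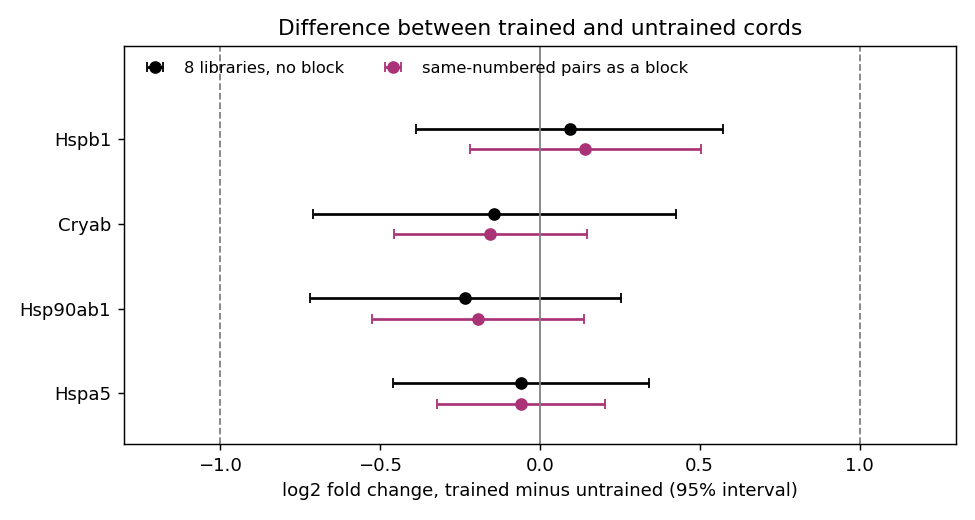
Log2 fold change of trained minus untrained cords with 95% intervals (horizontal axis) for the 4 members tested, without the block (black) and with same-numbered libraries as a block (purple). Dashed lines mark a 2-fold change in each direction; all 8 intervals include 0 and lie within the dashed lines.

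The intervals set what could have been missed. Without the block their half-widths were 0.48, 0.57, 0.49 and 0.40 for Hspb1, Cryab, Hsp90ab1 and Hspa5, each below the median of 0.62 over all genes tested. With the block they were 0.36, 0.30, 0.33 and 0.26, against a median of 0.49. Both medians are over genes of all levels. Against the median of genes within 0.5 of their own mean log2 level, Hspb1 and Cryab varied more and Hsp90ab1 and Hspa5 less. In the same order as above, the SDs in log2 CPM were 0.32, 0.47, 0.29 and 0.17, against medians of 0.27, 0.28, 0.31 and 0.28. A 2-fold change was excluded for 4 of 4 members in both fits, as it was for 80.0% of all genes without the block and 89.4% with it. Smaller changes were not excluded: the lower ends for Cryab and Hsp90ab1 without the block correspond to 0.61-fold in both genes. The intervals are those of single genes and are not adjusted for the number tested.

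The small heat shock proteins were then set against the chaperones within each library, as the mean log2 CPM of Hspb1 and Cryab minus that of Hsp90ab1 and Hspa5. Hspa8 was left out of this mean because it had no level. In untrained replicates 1 to 4 the difference was 1.28, 1.80, 1.52 and 0.96, and in trained ones 1.64, 1.91, 1.12 and 1.29. The group means were 1.39 ± 0.35 and 1.49 ± 0.35 (SD, n = 4 each), so that trained cords lay 0.10 higher, less than the spread between libraries. The direction rested on single libraries: it was -0.04 without untrained replicate 4 and also -0.04 without trained replicate 2. These held the lowest untrained and the highest trained value, so leaving either out could only lower the difference. With any other single library left out, the difference stayed above 0, from 0.05 to 0.24. The pair differences were 0.36, 0.12, -0.40 and 0.33 for replicates 1 to 4. No p is given for this combined measure.

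Likeness between the members was uneven. Hspb1 and Cryab, the related pair, differed by a root mean square of 0.52 in their centred log2 CPM over the 8 libraries, and Cryab ranked 2749 among 4085 genes in closeness to Hspb1. Hsp90ab1 and Hspa5 lay 0.33 apart, and Hspb1 lay nearer to each of these (0.32 and 0.33, ranks 443 and 538 among 4085 genes, against a median of 0.46) than to Cryab. Hspa5 ranked 752 in closeness to Cryab. Cryab and Hsp90ab1 were the farthest apart, at 0.63. Of the non-member genes tested, ENSRNOG00000002632 came closest to the mean profile of Hspb1 and Cryab (0.10, against a median of 0.44), and ENSRNOG00000017801 to that of Hsp90ab1 and Hspa5 (0.07, against a median of 0.38). The distances are not scaled to the spread of a gene, so a gene that varies little lies nearer to most genes. The median distance to all other genes was 0.38 from Hspa5 and 0.55 from Cryab, whose SDs in log2 CPM were 0.17 and 0.47. A smaller distance is therefore not read as a shared pattern. These distances are descriptions over 8 libraries that share their replicate numbers in pairs.

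The members differed in how much of their variation went with the replicate number. The numbers 1 to 4 recur in both groups, and same-numbered libraries deviated together over all genes. For Cryab the number took 80.1% of the sum of squares of log2 CPM over the 8 libraries and training 4.76%. For Hsp90ab1 these shares were 70.3% and 14.5%, and for Hspa5 66.4% and 4.42%. The medians over all genes tested were 62.3% and 4.83%, so the shares of Hsp90ab1 and Hspa5 for the number lay near the background. The number holds 3 of the 7 degrees of freedom and training 1, so the 2 shares are not on an equal footing. For Hspb1 the number took 16.4%, training 4.02%, and 79.6% went with neither, against a median of 26.3% for all genes. Its untrained and trained libraries of number 3 were the highest and the second lowest of the 8, and leaving that number out changed its paired estimate from 0.14 to 0.42, as given above.

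**Figure D3:**
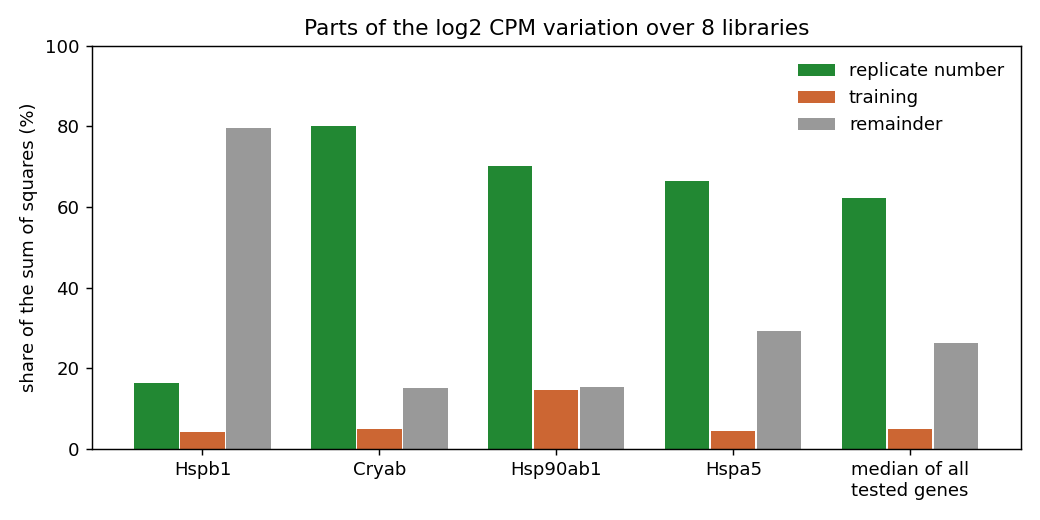
Share of the sum of squares of log2 CPM over the 8 libraries (vertical axis, percent) taken by the replicate number (green), by training (orange) and by neither (grey) for the 4 members tested and as medians over the 4086 genes. The green bar of Cryab reaches 80.1%, while that of Hspb1 reaches 16.4%.

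With all 8 libraries, 1 of the 4 members tested, Cryab, passed a test of differences between replicate numbers with training as a term (edgeR, 3 degrees of freedom, adjusted p = 0.00608 over all genes tested), which 16.0% of all genes passed. This test was not planned, and the numbers were taken as pairs because same-numbered libraries deviated together over these same genes. Its p-values are therefore not independent of the data. The call for Cryab held with each of the 8 libraries left out in turn, with adjusted p from 0.00187 to 0.0404. Hsp90ab1 had an adjusted p of 0.131, Hspa5 of 0.429 and Hspb1 of 0.645. Hspb1 passed without trained replicate 3 and did not pass without untrained replicate 3. In the refit that passed, number 3 was untrained replicate 3 alone, the highest of the 8 libraries for Hspb1. That call therefore rested on 1 library and does not show a level shared by both groups. Cryab stood at 785 ± 96.9 CPM in the 4 libraries numbered 1 and 2 and at 474 ± 127 CPM in the 4 numbered 3 and 4 (SD, n = 4 each). The first set spanned 660 to 896 CPM and the second 393 to 662 CPM, so that they overlapped by 1 library, untrained replicate 3. In edgeR with training as a term, the libraries numbered 3 and 4 differed from those numbered 1 and 2 by -0.74 ± 0.18 (SE) on the log2 scale, adjusted p = 0.0150, a difference that 10.2% of all genes passed in either direction and 4.01% passed as lower. This split of the numbers had been picked from these same libraries, so its p is not independent of the data. The call was lost without untrained replicate 2 or 4 or trained replicate 1 or 4, at edgeR adjusted p of 0.0561, 0.0511, 0.0571 and 0.0567, while the log2 difference stayed at -0.69, -0.66, -0.69 and -0.66.

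Hsp90ab1 had its higher mean in the other set, at 179.6 ± 15.3 CPM in numbers 1 and 2 and 243 ± 46.9 CPM in numbers 3 and 4, a difference of 0.44 ± 0.18 (SE) that did not pass (edgeR adjusted p = 0.130). Hspb1 differed by 0.22 ± 0.20 (SE, edgeR adjusted p = 0.527) and Hspa5 by -0.09 ± 0.16 (SE, edgeR adjusted p = 0.772). What the numbers mark is not said in the labels, so animal, day, level of dissection and library batch cannot be told apart. Markers of cell types were not looked up, since the identifiers have no symbols in the tables used here, and a part of oligodendrocyte or astrocyte content in the Cryab values was not tested.

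The ratio of 2 members within a library does not depend on how libraries are scaled. Per Hspb1 UMI there were 0.67, 0.72, 0.33 and 0.32 Cryab UMIs in untrained replicates 1 to 4, and 0.52, 0.49, 0.35 and 0.24 in trained ones. The ratio was 0.49 to 0.72 in the libraries numbered 1 and 2 and 0.24 to 0.35 in those numbered 3 and 4. This restates the Cryab counts above over a split picked from the same libraries and is no separate evidence of a difference between the sets. Trained cords had the lower ratio in 3 of 4 pairs, and the group means, 0.51 ± 0.21 and 0.40 ± 0.13 (SD, n = 4 each), differed by less than their spread. For the Hsp70 and Hsp90 members the ratio of Hspa5 to Hsp90ab1 UMIs was 3.37, 2.60, 2.45 and 1.74 in untrained and 3.12, 3.39, 2.83 and 1.89 in trained replicates 1 to 4. It was lowest in replicate 4 of both groups, and trained cords were higher in 3 of 4 pairs.

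**Figure D4:**
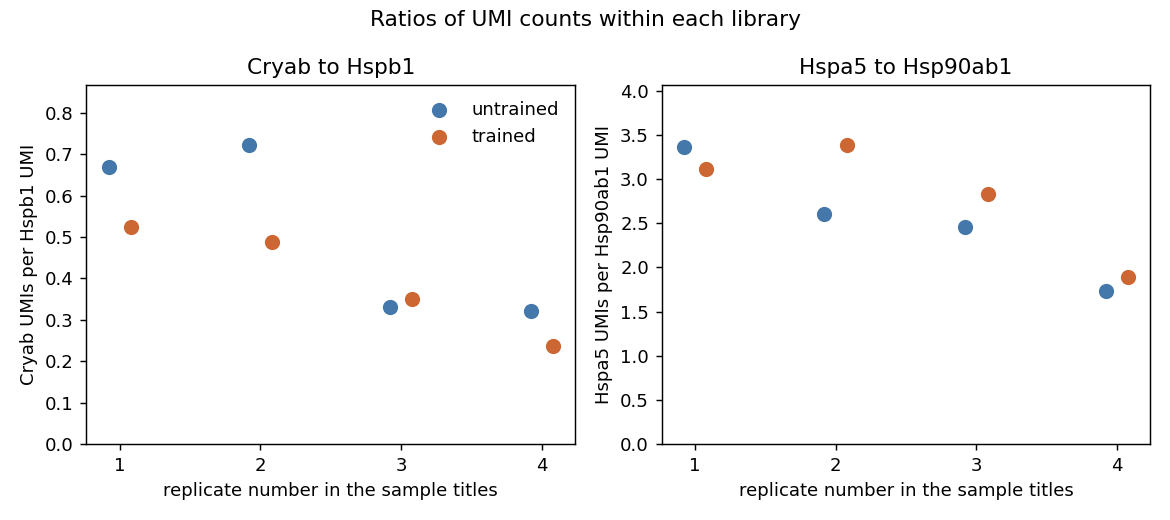
Cryab UMIs per Hspb1 UMI (left) and Hspa5 UMIs per Hsp90ab1 UMI (right) in each library, by replicate number on the horizontal axis, with untrained libraries in blue and trained ones in orange; both vertical axes start at 0. On the left, the libraries numbered 1 and 2 lie between 0.49 and 0.72 and those numbered 3 and 4 between 0.24 and 0.35.

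Counting error was a small part of this spread for the small heat shock proteins and a larger one for the chaperones. The CPM of Hspb1 varied by 30.7% (coefficient of variation) among untrained and 15.4% among trained libraries, where counting alone gives 4.89% and 5.64%. Cryab varied by 28.2% and 38.2%, where counting alone gives 6.90% and 8.67%. For Hspa5 the spread was 11.9% and 12.7%, not far above the counting error of 7.57% and 9.40%. Hsp90ab1 varied by 25.0% and 16.6%, with a counting error of 11.7% and 15.7%, so that its spread in trained cords was of about the size of counting error. The limited number of UMI sequences touched these genes little: the highest member count, 613 UMIs for Hspb1 in untrained replicate 4, became 664 after correction for UMIs of 6 bases, an assumed length.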

How the data were processed

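The authors deposited 1 table of raw UMI counts for 8 CEL-Seq2 libraries; HISAT2 2.0.4, HTSeq 0.6.0 and the build Rnor_6.0 are named in the submitters' processing notes, and the sources used here do not state the UMI collapsing or the handling of reads with several matches. Genes were filtered with filterByExpr (minimum count 10 in 4 libraries) and scaled by TMM. The main test was edgeR 4.0.16's quasi-likelihood test in R 4.3.3 without covariates, over all 4086 genes kept, with Benjamini-Hochberg adjustment. CPM refer to kept genes, and log2 CPM add a prior count of 2. Alternatives used limma 3.58.1 (voom), DESeq2 1.42.0, other scalings and filters, corrected counts and libraries left out. Scripts were tested on simulated data. Members and lists were chosen with earlier results of these data known. All 5 members are named; the likeness rule names 1 other gene per class. Lists of further chaperones and cell type markers were not used, since identifiers had no symbols here. The planned contrast of small heat shock proteins with chaperones included Hspa8, which failed the filter and was left out. Libraries of 1 group differed by 2.83 to 5.61 times the degrees of freedom in a chi-square test of their counts, so none was counted as a duplicate. Same-numbered libraries had correlations of 0.30 to 0.53 between their deviations from the group means over the 4086 genes, above 0.1 in all 4 pairs, and the numbers were taken as pairs on this evidence, since the labels do not explain them.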

Additional observations from a re-analysis of the deposited data

How the results depend on the processing

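In the comparison of training, 0 of the 4 members tested passed the threshold under any of 28 alternatives each, with adjusted p from 0.669 to 0.999992 for Hspb1 and 0.952 to 0.999992 for Cryab. Signs were less stable. With 1 library left out and no block, Hspb1 ran from -0.041 to 0.30, Cryab from -0.32 to 0.040 and Hspa5 from -0.14 to 0.0063; the difference of Hspa5 between the sets of numbers ran from -0.18 to 0.00073. In the replicate block without replicate 1, Hspb1 was at -0.024. In replicates 1 and 2 alone, Cryab was at 0.023 and Hspa5 at 0.092, and in replicates 3 and 4 alone Hspb1 was at -0.26. Hsp90ab1 stayed below 0 in all 28, from -0.40 to -0.01. The contrast of small heat shock proteins with chaperones ran from -0.04 to 0.27 over 20 alternatives. It was below 0 in 3: without untrained replicate 4, without trained replicate 2 and in replicates 3 and 4 alone. The block does not enter this contrast, so settings with a block and all libraries repeated the unblocked values. Other scalings hardly move a difference within a library (0.10 with each). These settings were therefore no separate check of its sign. The count of genes passing was 2 with the replicate block, 6 with no filter, 2 in limma-voom with the block, 1 on corrected counts with the block, 18 with no filter and the block (chosen after seeing the data), and 0 to 5 with both libraries of a number left out. For the sets of numbers it ran from 164 to 436, and for the numbers themselves from 425 to 625, with 1 library left out. Causes were not tested. Hspa8 had too few UMIs for a value in any setting. Refits with 1 library left out kept the 4086 genes.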
